A study of Mus musculus with 11 samples.

Results

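Ribosome assembly genes were followed through acetaminophen (APAP) injury of the mouse liver as a list of 40 genes, which encode nucleolar proteins and factors that build the ribosomal subunits. They were taken by symbol from the 31053 genes of each count matrix, all 40 were found, and all 40 passed the filter on low counts in every comparison, so counts below are over the whole list. By role they comprised 7 nucleolar scaffold and regulatory proteins, 3 RNA polymerase I subunits, 3 box C/D and 4 box H/ACA small nucleolar ribonucleoprotein (snoRNP) proteins, 11 factors of the small subunit and 12 of the large subunit.

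The data were Visium spatial transcriptomes, in which a grid of barcoded spots captures polyadenylated RNA from the tissue lying on it, of 11 snap-frozen liver cryosections. The uninjured group at 0 h held 3 sections (2, 3 and 4), and the injured groups held sections A and B for 24 h (2), A and B for 36 h (2) and A, B, C and D for 48 h (4) after APAP, a drug whose overdose kills the hepatocytes around the central vein. The labels mark the injured sections POD, an abbreviation they leave undefined, and name no strain, sex, age or dose. The study's methods describe its mice as young adults, male unless stated, with C57BL/6JCrl as the unmodified strain, fasted and then injected intraperitoneally with APAP in PBS, and count 1 mouse liver for each time point of the mouse spatial data. No label names a mouse, slide or run. Each n therefore counts sections, each p covers the spread between sections, which may be technical, and mouse or batch and time cannot be told apart. Because a spot mixes several cells, fewer cells of a type and less RNA per cell cannot be told apart either.

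Ribosomes are assembled in the nucleolus. RNA polymerase I transcribes a long ribosomal RNA precursor there, box C/D snoRNPs direct its ribose methylation and box H/ACA snoRNPs its pseudouridylation, and ordered assembly factors fold, cut and export both subunits. Dividing and growing cells need more ribosomes, the transcription factor MYC is a known activator of many of these genes, and enlarged nucleoli are a classical feature of hepatocytes in regenerating liver.

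The promoters of 3 members are shown because they differ in the letters sought there and in the way their genes moved, with Nop2 and Gar1 above 0 h and Rcl1 below it in every injured section. The letters were the E box CACGTG to which MYC with its partner MAX binds, and CCGGAAG, a core bound by ETS factors. Each sequence is the 250 bases before the RefSeq start in GRCm38.p6, read in the direction of transcription, with matches in capitals. Nop2 (chr6:125131633-125131882, plus strand) was the only member with CACGTG among the 34 that had a promoter entry, and it also held CCGGAAG. Gar1 (chr3:129831397-129831646, minus strand) held CCGGAAG on the opposite strand, printed as CTTCCGG, and Rcl1 (chr19:29101125-29101374, plus strand) held neither. Gar1 and Rcl1 were chosen after their values were seen.
Nop2: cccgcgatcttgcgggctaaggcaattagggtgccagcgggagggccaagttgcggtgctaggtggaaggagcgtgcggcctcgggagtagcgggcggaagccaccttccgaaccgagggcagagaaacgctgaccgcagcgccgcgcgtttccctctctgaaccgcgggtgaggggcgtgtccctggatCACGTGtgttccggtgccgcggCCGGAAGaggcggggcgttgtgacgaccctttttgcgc
Gar1: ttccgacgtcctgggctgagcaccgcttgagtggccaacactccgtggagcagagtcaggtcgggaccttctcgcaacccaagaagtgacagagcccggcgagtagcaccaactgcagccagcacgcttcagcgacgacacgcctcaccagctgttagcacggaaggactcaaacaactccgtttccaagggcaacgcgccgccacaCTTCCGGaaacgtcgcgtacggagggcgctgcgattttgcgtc
Rcl1: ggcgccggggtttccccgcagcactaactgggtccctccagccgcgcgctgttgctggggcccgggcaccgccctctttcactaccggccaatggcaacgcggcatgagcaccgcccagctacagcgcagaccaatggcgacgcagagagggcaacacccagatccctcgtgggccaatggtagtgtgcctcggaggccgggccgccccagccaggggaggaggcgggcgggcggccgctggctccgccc

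In Nop2 the E box began 60 bases and CCGGAAG 38 bases before the start, and in Gar1 the match began 43 bases before it. Searched on both strands over the 34 members, CACGTG was in 1 promoter (2.9%) against 9.49% of the 11292 tested genes with an entry, CACGCG in 5 (14.7%) against 15.3%, CCGGAAG in 9 (26.5%) against 14.4%, CTCGCGAG in 0 against 1.56%, and GCGCATGC in 1 (Nob1) against 4.63%. The 9 members with CCGGAAG were Bms1, Gar1, Heatr1, Nhp2, Nip7, Nolc1, Nop2, Polr1c and Wdr74. When the first 50 transcribed bases were added, CACGTG was in 5 of 34 (Mybbp1a, Nop2, Pes1, Pno1 and Wdr43) against 11.3%. No match overlapped a match of another of these letter strings. A match describes letters in a window and was not set against binding data. The windows also depend on the RefSeq start. For 30 of 37 member entries the bases after it were found in a GENCODE transcript of the gene, and for the others they were not. The members without an entry were Rrs1, Npm1, Bop1, Fbl, Tcof1 and Rrp12.

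Depth was high for the list as a whole and low for its rarest genes. The passing spots held 31292663 to 67045372 unique molecular identifiers (UMIs) per section, of which 44843 to 88673 came from the 40 members. The lowest count of a member in any section was 87 UMIs, for Tcof1. The tissue was liver by its markers, with summed levels of the hepatocyte list of 119200 to 124600 CPM (UMIs per 1000000 of the scaled total) without injury and 85330 to 113900 CPM after it. Mitochondrial UMIs made up 4.1% to 6.0% of the total in uninjured and 1.8% to 4.5% in injured sections.

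All members together took 0.109%, 0.112% and 0.117% of UMIs in the 3 sections at 0 h and 0.193% and 0.181% in the 2 sections at 24 h. At 36 h the share was 0.148% and 0.135%, and at 48 h it was 0.145%, 0.148%, 0.147% and 0.141%. Every injured section lay above every 0 h section, and both 24 h sections lay above all others. This share is a total-count measure. On the TMM-scaled CPM used below, the mean log2 CPM of the members was 4.17 to 4.30 at 0 h, 5.002 and 4.93 at 24 h, 4.40 and 4.43 at 36 h, and 4.39, 4.39, 4.35 and 4.28 at 48 h, so that section D at 48 h lay within the 0 h range. Thinned to 2000 UMIs, a spot held on average 2.08 to 2.30 member UMIs at 0 h, 3.91 and 3.70 at 24 h, 2.94 and 2.62 at 36 h, and 2.86 to 2.97 at 48 h.

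**Figure D1:**
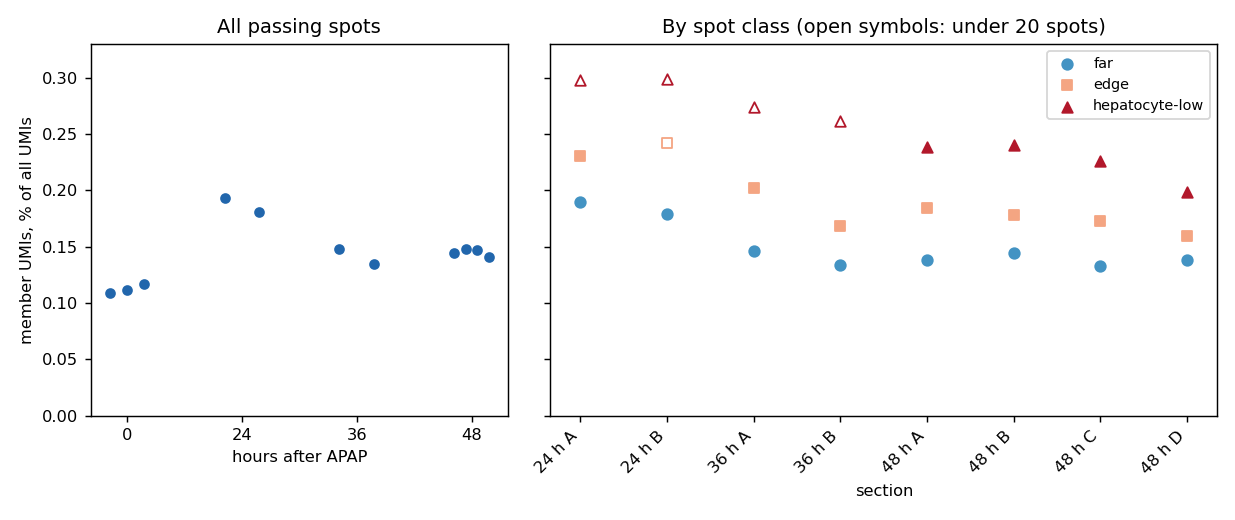
Left, member UMIs as a percent of all UMIs in each section (points) by hours after APAP, where both 24 h sections (0.193% and 0.181%) lie above the rest. Right, the same percent in far, edge and hepatocyte-low spots of each injured section, with open symbols for classes of fewer than 20 spots. In all 8 sections the low spots lie highest and the far spots lowest. The percent is a total-count measure, on which the median of all genes was also higher in low and edge than in far spots at 48 h.

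To ask how the genes moved one by one, section sums were tested with edgeR's quasi-likelihood test across 14821 genes. At 24 h, 32 of the 40 members rose and 1 fell against 0 h, where 23.1% of all tested genes were called higher and 18.6% lower. The median log2 fold change of the members was 0.88, against 0.05 over all genes. At 36 h, 10 members were higher and 3 lower (all genes 16.8% higher and 12.4% lower), with a median of 0.24, and at 48 h 8 were higher and 2 lower (23.3% and 20.9%), with a median of 0.13. The member shares at 36 h and 48 h were not tested against those of all genes. The 3 comparisons share the 0 h sections. Leaving out the 0 h section 2 brought the count at 36 h from 13 to 8, and leaving out the 0 h section 3 or the 48 h section C brought that at 48 h from 10 to 6.

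Scaling set how many members were called at the later times. With libraries scaled by their total UMIs in place of TMM (a scaling that centres the bulk of the genes), the median of all genes itself moved to 0.37, 0.49 and 0.54 at 24 h, 36 h and 48 h, and 37, 32 and 36 members were called higher with 0, 1 and 1 lower. On that scale the shares of all genes called higher were 41.1%, 47.7% and 60.2%, and those called lower 10%, 2.98% and 4.04%. Relative to the median of all genes, the member median was 0.83, 0.19 and 0.12 higher under total counts and 0.83, 0.20 and 0.12 higher under TMM.

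Section values separated 24 h from 0 h for most of the list. Both 24 h sections were above all 3 sections at 0 h for 36 members, as for 37% of all genes, and below them for 2, Nop10 and Rcl1, as for 32.1%. Rrs1 and Pno1 overlapped. The mean was highest at 24 h for 37 of 40 members, as for 31.3% of all genes, at 0 h for Nop10 and Rcl1, and at 48 h for Tcof1. All 8 injured sections lay above all 0 h sections for 8 members (15.7% of all genes), Bms1, Gar1, Gnl3, Nip7, Nop2, Nop56, Pes1 and Polr1a, and below them for Nop10 and Rcl1 (14.2%).

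**Figure D2:**
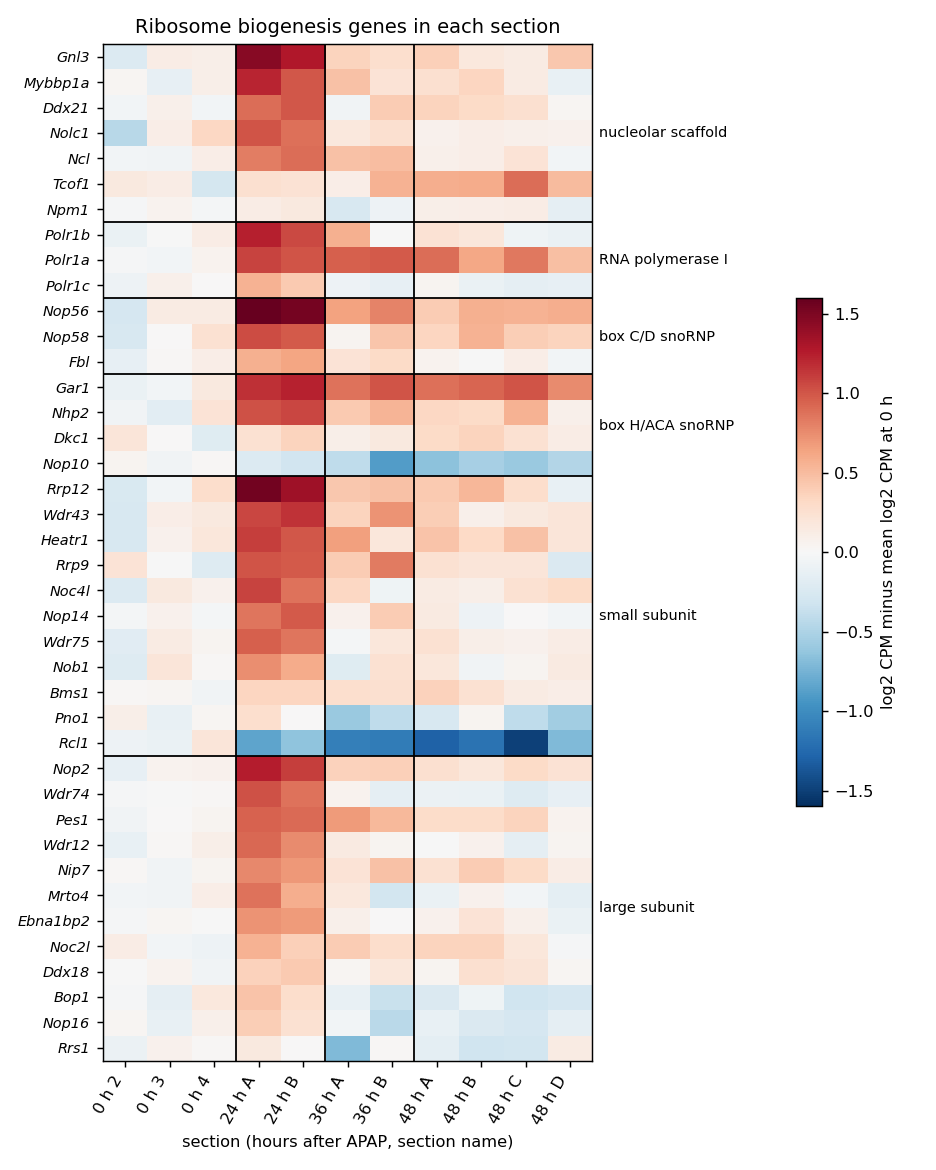
Colour gives log2 CPM of each member (vertical axis, grouped by role) in each of the 11 sections (horizontal axis) minus its mean log2 CPM at 0 h. The 24 h columns are the reddest, and Nop10 and Rcl1 are blue in all 8 injured sections.

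Among the nucleolar scaffold proteins, 5 of 7 rose at 24 h. Ncl, encoding nucleolin, an abundant nucleolar RNA-binding protein, was at 86.3, 85.3 and 96.0 CPM at 0 h, 156 and 166 at 24 h, 123 and 126 at 36 h, and 94.5, 96.1, 104 and 86.1 at 48 h. Its 24 h and 36 h sections lay above all 0 h sections and its 48 h sections overlapped them, with log2 fold changes of 0.85 (SE 0.107, edgeR adjusted p = 0.000195), 0.48 (SE 0.107, adjusted p = 0.00842) and 0.09 (adjusted p = 0.430). Gnl3, encoding nucleostemin, a GTP-binding protein that shuttles between nucleolus and nucleoplasm, was at 22.1, 27.9 and 27.3 CPM at 0 h and 70.1 and 62.4 CPM at 24 h. At 36 h it was at 32.9 and 31.0 CPM and at 48 h at 33.3, 28.7, 28.1 and 34.6 CPM, so that the later sections lay just above 0 h and far below 24 h. Its log2 fold change at 24 h was 1.36 (SE 0.133, adjusted p = 5.71e-05), a 2.57-fold higher level.

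Npm1, encoding nucleophosmin, a histone and ribosomal protein chaperone of the outer nucleolus, passed no test against 0 h. It was at 129, 136 and 128 CPM at 0 h, 143 and 146 at 24 h, 109.6 and 124 at 36 h, and 139.5, 141, 142 and 118 at 48 h. Its 24 h sections were above and its 36 h sections below those at 0 h, and no change passed the test (log2 fold changes 0.14, -0.17 and 0.05, adjusted p = 0.357, 0.274 and 0.718). The 36 h value turned to 0.27 when libraries were scaled by total UMIs. Tcof1, encoding treacle, which joins RNA polymerase I transcription to snoRNP modification, was at 3.32, 3.24 and 2.46 CPM at 0 h, 3.55 and 3.51 at 24 h, 3.22 and 4.39 at 36 h, and 4.47, 4.51, 5.52 and 4.25 at 48 h. All 48 h sections were above all 0 h sections (log2 fold change 0.64, SE 0.167, adjusted p = 0.0105), though without the 0 h section 4 the adjusted p was 0.0512. Mybbp1a (a regulator of RNA polymerase I), Ddx21 (an RNA helicase) and Nolc1 (a snoRNP chaperone) rose at 24 h by log2 fold changes of 1.11, 0.94 and 0.91.

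All 3 RNA polymerase I subunits rose at 24 h. Polr1a, the largest subunit, was at 8.17, 8.06 and 8.64 CPM at 0 h, 17.6 and 16.6 at 24 h, 16.0 and 16.3 at 36 h, and 15.4, 12.7, 14.9 and 11.6 at 48 h. It was above every 0 h section in all 8 injured sections, with log2 fold changes against 0 h of 1.04 (SE 0.127, adjusted p = 0.000166), 0.96 (SE 0.127, adjusted p = 0.000815) and 0.72 (SE 0.109, adjusted p = 0.000493). Polr1b, which with Polr1a forms the catalytic centre, was at 9.71, 10.4 and 11.4 CPM at 0 h, 24.8 and 21.8 at 24 h, 15.5 and 10.5 at 36 h, and 12.3, 11.9, 9.99 and 9.77 at 48 h. Its sections at 36 h differed from each other, with A above and B within the 0 h range. Its log2 fold change was 1.15 at 24 h (SE 0.169, adjusted p = 0.000474), 0.31 at 36 h (adjusted p = 0.198) and 0.06 at 48 h (adjusted p = 0.740), and the 36 h value was -0.01 without section A and 0.56 and called without section B. Polr1c, shared with RNA polymerase III, was at 21.6, 24.3 and 23.0 CPM at 0 h, 33.7 and 30.6 at 24 h, 21.8 and 21.0 at 36 h, and 23.6, 21.3, 20.7 and 21.0 at 48 h. Only its 24 h sections stood apart from 0 h (log2 fold change 0.48, SE 0.099, adjusted p = 0.00303), and its values at 36 h and 48 h, -0.10 and -0.09 (adjusted p = 0.469 and 0.426), turned to 0.34 and 0.44 under total-count scaling.

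The box C/D proteins, which carry the ribose methyltransferase and its scaffold, all rose at 24 h. Nop56, a core scaffold protein, had the largest fold change of the list. It was at 15.3, 20.01 and 20.2 CPM at 0 h, 60.1 and 52.8 at 24 h, 28.7 and 31.7 at 36 h, and 24.2, 27.2, 27.1 and 27.5 at 48 h, above 0 h in every injured section. Its log2 fold changes were 1.61 (SE 0.131, adjusted p = 2.99e-05, 3.06-fold), 0.71 (SE 0.132, adjusted p = 0.00379) and 0.52 (SE 0.113, adjusted p = 0.00388). Fbl, encoding the methyltransferase fibrillarin, was at 31.8, 35.2 and 37.6 CPM at 0 h, 51.5 and 53.8 at 24 h, 40.5 and 43.0 at 36 h, and 36.2, 34.6, 37.6 and 33.8 at 48 h. It stood above 0 h at 24 h and 36 h and within its range at 48 h, with log2 fold changes of 0.59 (SE 0.099, adjusted p = 0.00098), 0.26 (adjusted p = 0.0726) and 0.03 (adjusted p = 0.807). Nop58, the partner of Nop56, rose by 1.001 at 24 h and 0.40 at 48 h on the log2 scale.

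The 4 box H/ACA proteins, which also belong to telomerase, went different ways. Gar1 was at 5.59, 5.85 and 6.69 CPM at 0 h, 13.5 and 14.1 at 24 h, 11.04 and 12.1 at 36 h, and 11.1, 11.5, 12.1 and 10.2 at 48 h. It stayed above every 0 h section, with log2 fold changes of 1.19 (SE 0.118, adjusted p = 6.15e-05), 0.94 (SE 0.119, adjusted p = 0.000689) and 0.89 (SE 0.102, adjusted p = 0.000106). Nop10, the smallest of the complex, was at 320.1, 298 and 315 CPM at 0 h, 266 and 251 at 24 h, 235 and 168 at 36 h, and 197, 215, 206 and 225 at 48 h. Every injured section was below every 0 h section. Its log2 fold changes were -0.27 at 24 h (adjusted p = 0.150, and 0.06 under total-count scaling), -0.63 at 36 h (SE 0.141, adjusted p = 0.00888) and -0.56 at 48 h (SE 0.115, adjusted p = 0.00288). Without the 36 h section B, the 36 h adjusted p was 0.0514, and with total-count scaling neither later call remained (-0.18 and -0.03). Nhp2 rose at 24 h and 36 h (1.03 and 0.48), and Dkc1, the pseudouridine synthase itself, was at 8.61, 7.55 and 6.61 CPM at 0 h and 8.93 and 9.64 CPM at 24 h, a difference that did not pass the test (0.29, adjusted p = 0.105).

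Among the small subunit factors, 9 of 11 rose at 24 h and Rcl1 fell. Rrp12, which takes part in the export of pre-ribosomal subunits, was at 3.74, 4.29 and 5.39 CPM at 0 h, 12.9 and 11.4 at 24 h, 5.97 and 6.11 at 36 h, and 5.92, 6.38, 5.39 and 4.09 at 48 h. Its 24 h sections stood apart and the 48 h sections overlapped those at 0 h. Its log2 fold change at 24 h was 1.45 (SE 0.199, adjusted p = 0.00033), a 2.72-fold higher level. The processome proteins Wdr43, Heatr1, Rrp9, Noc4l, Nop14 and Wdr75 rose by 0.91 to 1.10, Nob1, the nuclease that trims the small subunit RNA, by 0.66, and the GTPase Bms1 by 0.34. Pno1, the binding partner of Nob1, was at 40.3, 34.8 and 38.5 CPM at 0 h and 45.3 and 38.0 CPM at 24 h, and had at 36 h a log2 fold change of -0.50 (adjusted p = 0.0465), which scaling by total UMIs brought to -0.06 (adjusted p = 0.770).

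Rcl1, a cyclase-like protein of the small subunit processome, moved against most of the list. It was at 195, 191 and 237 CPM at 0 h, 115 and 132 at 24 h, 97.1 and 95.4 at 36 h, and 84.6, 91.1, 73.2 and 127 at 48 h. No injured section reached the 0 h range, and 48 h D lay highest of its group. Its log2 fold changes were -0.75 (SE 0.206, adjusted p = 0.0137), -1.11 (SE 0.209, adjusted p = 0.00391) and -1.14 (SE 0.167, adjusted p = 0.000405). The 24 h fall did not pass under total-count scaling (-0.42, adjusted p = 0.0924).

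Among the large subunit factors, 10 of 12 rose at 24 h and none fell. Nop2, an RNA methyltransferase of the large subunit RNA whose promoter with its E box is printed above, was at 9.18, 10.4 and 10.5 CPM at 0 h, 23.9 and 21.5 at 24 h, 13.0 and 13.0 at 36 h, and 12.0, 11.4, 12.4 and 11.8 at 48 h. All injured sections were above all 0 h sections (24 h log2 fold change 1.18, SE 0.100, adjusted p = 3.25e-05, 2.27-fold). Wdr74, a nucleolar repeat protein of early large subunit assembly, was at 22.3, 22.4 and 22.8 CPM at 0 h, 45.7 and 41.1 at 24 h, 23.4 and 20.4 at 36 h, and 21.1, 20.9, 19.5 and 20.5 at 48 h. It was above 0 h at 24 h and below the 0 h range in 5 of the 6 later sections, though scaled by total UMIs it was called higher at 36 h (0.40, adjusted p = 0.00988) and 48 h (0.39, adjusted p = 0.00308). Of the Pes1, Bop1 and Wdr12 complex, which acts in processing of the large subunit RNA, Pes1 and Wdr12 rose by 0.92 and 0.84 and Bop1 by 0.37. Nip7, Mrto4 and Ebna1bp2 rose by 0.70 to 0.73, Noc2l and Ddx18 by 0.47 and 0.39, while Rrs1 and Nop16 did not pass the test (0.09 and 0.31).

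**Figure D3:**
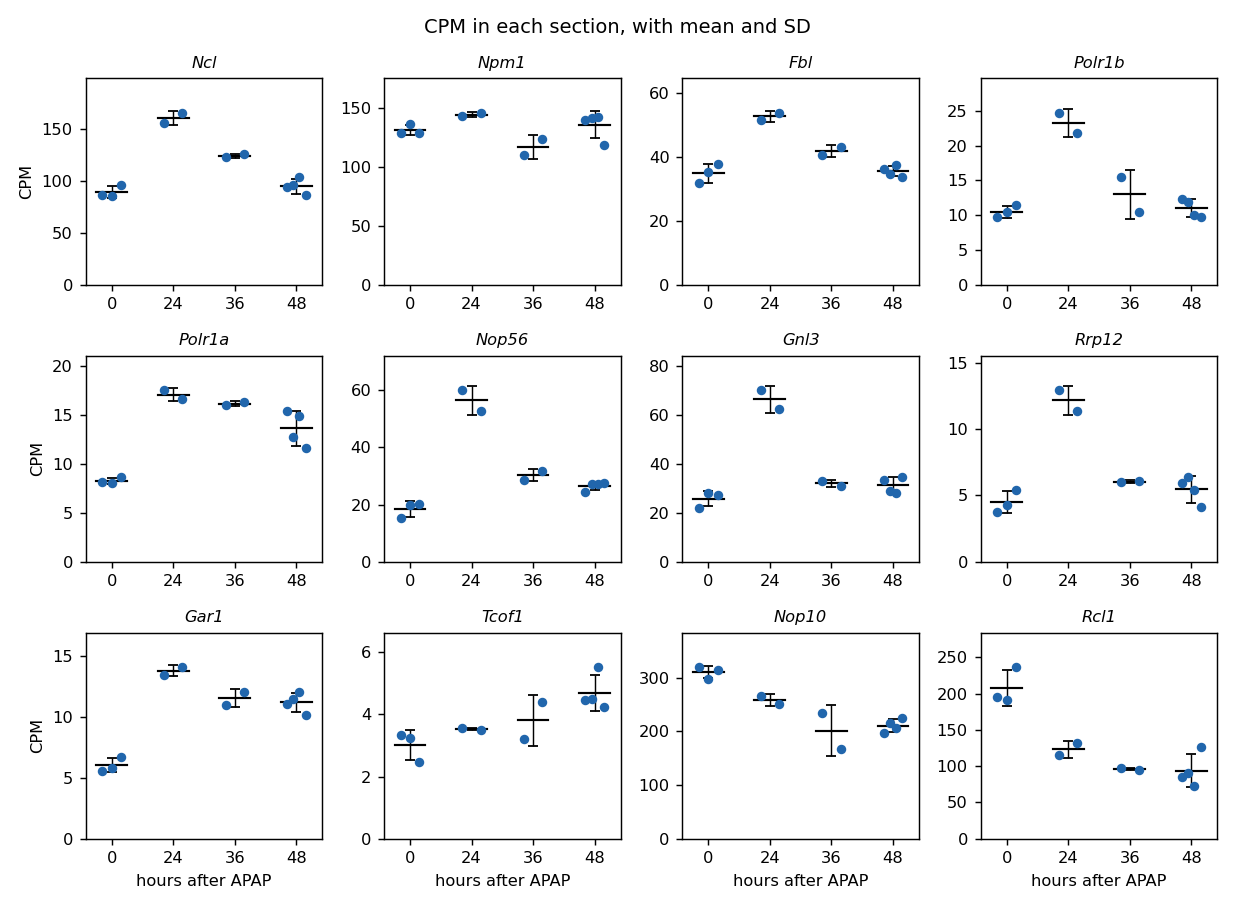
CPM of 12 members in each section (points) by hours after APAP, each with its own axis from 0 with the group mean and SD. Polr1a and Gar1 stay above 0 h in all 8 injured sections, Ncl and Gnl3 peak at 24 h, and Nop10 and Rcl1 lie below 0 h throughout.

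**Figure D4:**
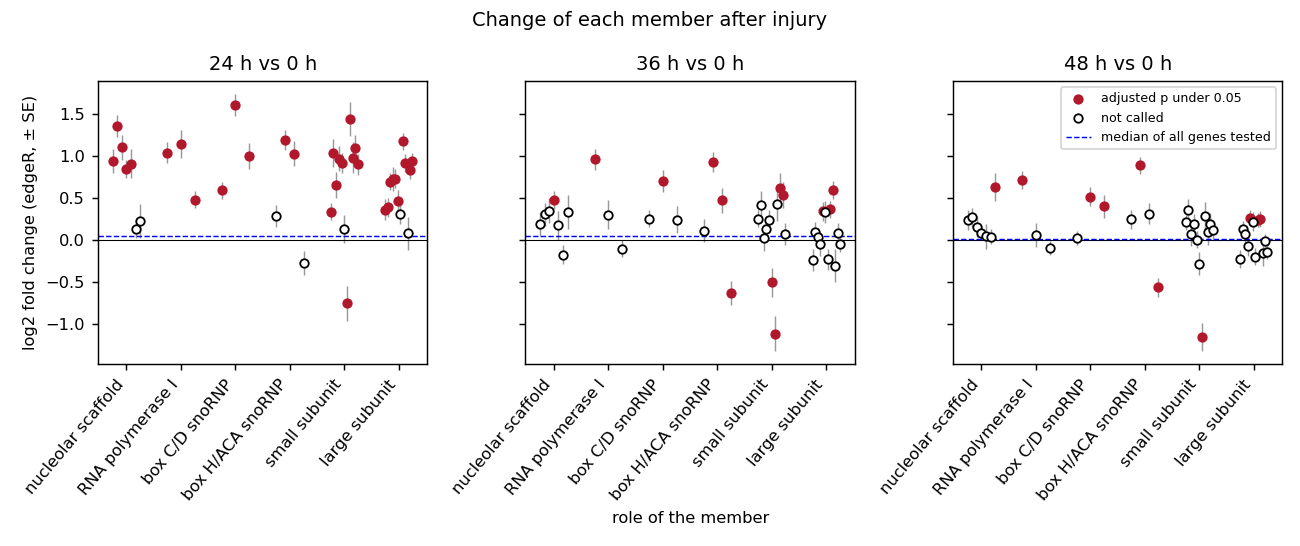
Log2 fold change against 0 h (vertical axis, edgeR estimate with SE) of each member by role (horizontal axis) at 24 h, 36 h and 48 h. Filled points passed an adjusted p under 0.05 (32 higher and 1 lower at 24 h) and the dashed line is the median of all genes tested.

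The fall after 24 h was tested directly. Against 24 h, 0 members were higher and 24 lower at 36 h (7.04% of all genes higher, 8.58% lower), and 0 were higher and 28 lower at 48 h (16.2% and 17.8%), with member medians of -0.59 and -0.65 where those of all genes were 0.02 and -0.00. The largest falls at 36 h were those of Gnl3 (-1.05, SE 0.149, adjusted p = 0.00403), Rrp12 (-1.01, SE 0.222, adjusted p = 0.0164) and Wdr74 (-0.98, SE 0.107, adjusted p = 0.00161). At 48 h they were those of Rrp12 (-1.16, SE 0.183, adjusted p = 0.00132), Nop56 (-1.09, SE 0.122, adjusted p = 0.000364) and Gnl3 (-1.09, SE 0.123, adjusted p = 0.000371). Gar1, Polr1a, Npm1, Dkc1, Rrs1, Ddx18, Noc2l, Tcof1, Bms1, Nop10 and Rcl1 were called lower at neither time. The 36 h count rested on few sections. It was 8 without the 24 h section A, 14 without the 24 h section B or the 36 h section B, and 0 when only the 24 h and 36 h sections entered the fit, which called 1 of 13747 genes in all. With the section letter as a replicate block it was also 0 (0.285% of all genes higher, 0.272% lower), and the 48 h count was 10, all lower (3.31% and 2.16%). The member medians at 36 h in those fits were -0.58 and -0.59. Between 36 h and 48 h, 0 members were called in either direction by edgeR (1.62% of all genes higher, 1.43% lower). An unadjusted p under 0.05 was found for 5 members and for 3042 of 14821 genes. DESeq2 called 1 member lower (4.72% of all genes higher, 3.54% lower).

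Other genes of the pathway, on lists that hold no member, were counted in the same fits. Of 77 further ribosome biogenesis genes, 52 were higher and 4 lower at 24 h, 11 and 6 at 36 h, and 12 and 9 at 48 h, with medians of 0.58, 0.04 and 0.00. Of all genes, 23.1%, 16.8% and 23.3% were higher at these times and 18.6%, 12.4% and 20.9% lower. At 36 h and 48 h both shares of the 77 genes were smaller than those of all genes. The largest changes among the 77 at 24 h were in Sdad1 (1.64), Grwd1 (1.56) and Ppan (1.53), all linked to large subunit assembly. Of 12 further RNA polymerase I genes, 7 were higher and 0 lower at 24 h, led by Cd3eap, a polymerase subunit (1.97), and the promoter selectivity factors Taf1c (1.78) and Taf1a (1.40), and 4 were higher and 3 lower at both later times. Cd3eap was at 2.77, 2.21 and 3.70 CPM at 0 h, 10.7 and 11.8 at 24 h, 7.91 and 6.68 at 36 h, and 5.20, 4.15, 4.63 and 4.45 at 48 h, above 0 h in all injured sections. Led by Nle1 (0.82), Sdad1 (0.81) and Kri1 (0.74) at 36 h, the ribosome biogenesis changes were led at 48 h by 3 falls, those of Aatf (-0.87), Rrp36 (-0.76) and Nop53 (-0.66). Under total-count scaling 66, 55 and 69 of the 77 were higher and 0 lower at the 3 times. On that scale 41.1%, 47.7% and 60.2% of all genes were higher and 10%, 2.98% and 4.04% lower.

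Of 13 genes of the MYC network, 5 were higher and 2 lower at 24 h, 2 and 1 at 36 h, and 3 and 3 at 48 h. Of all genes, 23.1%, 16.8% and 23.3% were higher and 18.6%, 12.4% and 20.9% lower. The median of the 13 genes was -0.12 at 24 h and turned to 0.20 under total-count scaling. Myc was at 5.24, 2.08 and 2.71 CPM at 0 h, 8.02 and 8.61 at 24 h, 6.63 and 10.3 at 36 h, and 11.5, 10.1, 10.00 and 7.96 at 48 h. Every injured section lay above every 0 h section. The mean was highest at 24 h for 37 members and at 48 h for Myc, whose sections at 24 h, 36 h and 48 h overlapped each other. Its log2 fold changes were 1.31 (SE 0.333, adjusted p = 0.00956), 1.34 (adjusted p = 0.0141) and 1.57 (SE 0.291, adjusted p = 0.0017). Mycl, a paralogue, fell by 1.16 at 24 h and 0.62 at 36 h, and Mycn rose by 1.43 at 24 h and 1.22 at 48 h, from 0.506 to 1.14 CPM at 0 h. Mxd3, a repressor that competes for MAX, rose by 1.86 at 36 h and 4.92 at 48 h.

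To place the genes in the tissue, spots were classed by a hepatocyte score from a list without members. Hepatocyte-low spots fell under the 1st percentile of 0 h spots, edge spots touched one, and far spots were at least 3 steps away. Low spots made up 1.14%, 1.52% and 0.64% of spots at 0 h, 0.75% and 0.36% at 24 h, 0.46% and 0.295% at 36 h, and 2.08%, 1.81%, 5.94% and 1.90% at 48 h. At 24 h and 36 h no section exceeded the 0 h range, so the class alone does not mark injured tissue there. In far, edge and low spots members took 0.138%, 0.184% and 0.239% of UMIs in 48 h A, 0.144%, 0.178% and 0.240% in B, 0.133%, 0.173% and 0.226% in C, and 0.139%, 0.160% and 0.199% in D. The same order held in all 8 injured sections, where the share ran from 0.133% to 0.189% in far spots and from 0.160% to 0.242% in edge spots. This share is of all UMIs, and low spots were picked for few UMIs of abundant hepatocyte genes, so shares of other genes can rise by construction. On the total-count scale at 48 h, the median of all genes was 0.58 in low and 0.26 in edge against far spots. That of the members was 0.72 and 0.39. At 24 h and 36 h no section held 20 low spots, so these classes were not tested there at this percentile. The 48 h sections held 72, 27, 156 and 46 low spots. CPM of spot classes were scaled among the classes and are not to be read against CPM of whole sections.

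Low spots differed from far spots in cell type markers as well as in members. At 48 h hepatocyte markers summed to 35700 to 49440 CPM in low, 85560 to 97880 in edge and 120800 to 136800 in far spots. Phagocyte markers summed to 2629 to 5479, 1436 to 2703 and 778.4 to 1440 CPM, myofibroblast markers to 2007 to 5084, 1028 to 2418 and 503.4 to 1289 CPM, cycling genes to 854.5 to 1308, 566.5 to 1214 and 355.2 to 789.3 CPM, and neutrophil markers to 97.07 to 326.5, 56.39 to 168 and 35.1 to 92.85 CPM. Hepatocyte markers fell toward low spots by the definition of the class, and the phagocyte, myofibroblast, cycling and neutrophil lists rose. Cholangiocyte markers summed to more in low than in far spots of A, B and C and to less in D (271.9 against 410.2 CPM). The part of these lists in the member values was not tested. At 48 h, markers at 0 were found only in the lymphocyte and cholangiocyte lists.

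Against far spots of the same sections, 17 members were higher and 3 lower in low spots at 48 h, where 28.9% of all genes were called higher and 28.7% lower. The member median was 0.16 against 0.02. Low spots were picked for few UMIs of hepatocyte genes, so other genes expressed in hepatocytes can also fall there by construction. In this comparison the hepatocyte markers had a median of -1.55. The part of this in the member values was not tested. Rcl1 had the largest difference among the members. It was at 49.1, 49.5, 38.8 and 45.7 CPM in low spots of A to D, 87.2, 89.7, 85.2 and 116 in edge spots and 111, 120.0, 103 and 171 in far spots, so that the class order was the same in all 4 sections (low against far -1.45, SE 0.088, adjusted p = 1.32e-26). Npm1 ran the other way, with 283, 288, 260.1 and 223 CPM in low, 215, 197, 204 and 178 in edge and 166, 174, 163 and 145 in far spots (0.70, SE 0.060, adjusted p = 5.46e-18). Tcof1 was at 12.9, 6.45, 10.1 and 9.28 CPM in low, 8.003, 5.71, 9.04 and 7.79 in edge and 5.08, 5.76, 5.70 and 4.996 in far spots, with no step from far to edge in section B (0.88, SE 0.195, adjusted p = 6.83e-05). Ncl, Ddx21, Nop56, Wdr75 and Dkc1 were higher by 0.60 to 0.68, and Nop10 and Nop16 were lower by log2 differences of -0.36 and -0.29. None of the 3 RNA polymerase I subunits was called.

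In edge spots at 48 h, 16 members were higher and 2 lower than in far spots (19.6% and 20.8% of all genes), with a median of 0.14. Gar1 was at 19.2, 17.6, 19.9 and 14.1 CPM in edge and 13.2, 13.9, 12.6 and 12.5 CPM in far spots, higher in all 4 sections (0.47, SE 0.087, adjusted p = 5.43e-06). Tcof1 differed by 0.55 (SE 0.136, adjusted p = 0.000547) and Rcl1 by -0.40 (SE 0.060, adjusted p = 3.44e-08). The hepatocyte markers had a median of -0.40 in the same comparison. DESeq2 called 8 members higher and 2 lower (14% and 15.3% of all genes). Scaled by total UMIs, the median of all genes was 0.58 in low and 0.26 in edge spots, and 39 members were higher and 1 lower in low spots (59.7% and 12.7% of all genes) and 36 and 1 in edge spots (50.1% and 8.18%). Relative to the median of all genes the member medians were then 0.14 and 0.13.

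**Figure D5:**
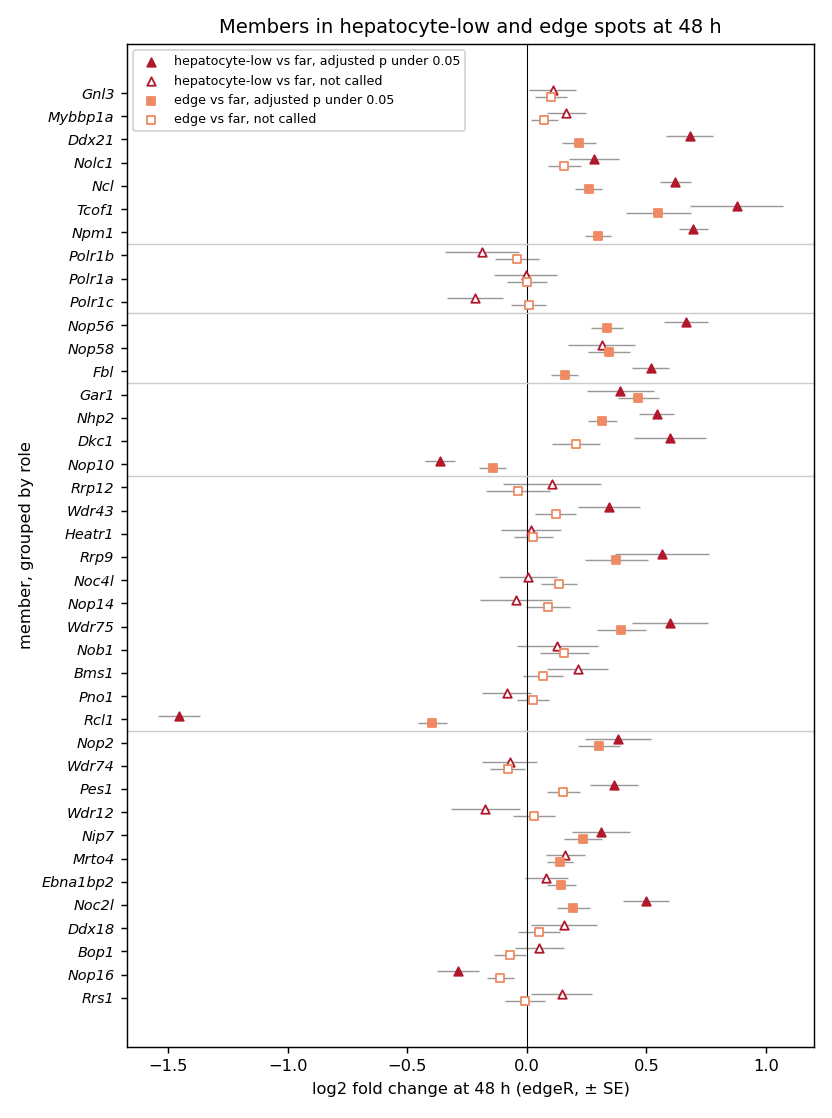
Log2 fold change at 48 h (horizontal axis, edgeR estimate with SE) of hepatocyte-low against far spots (triangles) and edge against far spots (squares) for each member (vertical axis, grouped by role). Filled symbols passed an adjusted p under 0.05, and Rcl1 lies farthest to the left at -1.45.

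Earlier edges gave fewer calls from fewer sections. At 36 h, 2 members were higher and 0 lower in edge spots (1.48% and 4.72% of all genes). Nhp2 was at 174 and 131 CPM in edge and 100.2 and 113 CPM in far spots (0.55, SE 0.129, adjusted p = 0.00198), and Npm1 at 195 and 219 against 135 and 154 CPM (0.52, SE 0.108, adjusted p = 0.000338). Both genes were higher at the edge in A and in B, and neither passed without section A. At 24 h only section A held enough edge spots, and 0 members were called by edgeR (0.132% of all genes higher, 1.12% lower). An unadjusted p under 0.05 was found for 4 members and for 1346 of 13586 genes. DESeq2 called 1 member higher (0.162% of all genes higher, 0.596% lower). The edge effect at 48 h minus that at 24 h was called for 0 members by edgeR (0.662% of all genes higher, 0.501% lower). An unadjusted p under 0.05 was found for 0 members and for 1566 of 13586 genes.

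With low spots drawn at the 5th percentile, both earlier times could be tested. Low spots then numbered 92 of 2521 and 33 of 1648 at 24 h, and 41 of 1970 and 24 of 2035 at 36 h. Each part was below the about 5% that this cut takes of 0 h spots. The class alone therefore does not mark injured tissue here either, and genes expressed in hepatocytes can again fall in it by construction. At 24 h, 7 members were higher in low than in far spots and 2 lower (6.25% and 11.1% of all genes), and at 36 h 6 were higher and 1 lower (6.78% and 10.6%). Ncl, Npm1, Nop56 and Nhp2 were higher at both times, by 0.59, 0.60, 0.45 and 0.60 at 24 h and 0.45, 0.72, 0.68 and 0.62 at 36 h. Fbl, Nop2 and Mybbp1a were called at 24 h (0.41, 0.54 and 0.42), and Gar1 and Ebna1bp2 at 36 h (1.04 and 0.53). Rcl1 was lower at both times, with -0.53 and -0.67. The low effect at 48 h minus that at 24 h passed for 1 member, Rcl1 (-0.70, SE 0.151, edgeR adjusted p = 0.00056). Of all genes, 6.8% passed as higher and 7.79% as lower in that comparison.

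In far spots alone fewer members were called at 48 h than in whole sections. Against 0 h, 31 members were higher and 1 lower at 24 h (22.8% and 18.5% of all genes), 10 and 3 at 36 h (16.7% and 12.4%), and 4 and 2 at 48 h (20.7% and 17.8%). Against 24 h, 0 were higher and 23 lower at 36 h (7.07% and 8.37%). Over the whole sections, cycling genes summed to 74.46 to 80.44 CPM at 0 h, 94.79 to 117.2 at 24 h, 172.8 to 202.2 at 36 h and 311.4 to 675.3 at 48 h, and myofibroblast markers went from 37.48 to 45.92 CPM at 0 h to 483.5 to 1185 at 48 h. Neutrophil markers summed to 1.981 to 7.859 CPM at 0 h, 38.4 and 135.7 at 24 h, 20.9 and 60.3 at 36 h, and 29.7 to 105.1 at 48 h, with the highest mean at 24 h and overlap between the injured times. Phagocyte markers summed to 409.1 to 434.5 CPM at 0 h and 553.3 to 595 CPM at 24 h. The part of these cell types in the member values was not tested.

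Uninjured sections were split by position in the lobule, with a score from central and portal genes that uses no member. In the third of spots with the highest (most central) score members took 0.115%, 0.117% and 0.123% of UMIs in sections 2, 3 and 4, and in the third with the lowest (most portal) 0.105%, 0.107% and 0.113%. Central exceeded portal in each section. This share is a total-count measure, and on that scale the median of all genes was 0.06 higher centrally and that of the members 0.09. By edgeR 5 members were higher and 0 lower centrally (12.5% and 12.7% of all genes), with a median of 0.03. Mrto4, an early large subunit factor, was at 33.98, 35.1 and 41.1 CPM centrally and 30.5, 29.0 and 30.5 CPM portally (0.28, SE 0.052, adjusted p = 8.98e-06). Rcl1 was at 165, 165 and 198 against 150.0, 141 and 180.2 CPM (0.17, SE 0.029, adjusted p = 2.59e-06), and Nolc1 at 12.6, 18.9 and 20.4 against 11.03, 15.1 and 19.6 CPM (0.20, SE 0.071, adjusted p = 0.0255). Each was higher centrally in 3 of 3 sections, and Nhp2 (0.14) and Nop10 (0.08) made up the 5. The call of Nolc1 was lost with DESeq2 (adjusted p = 0.521), with smaller zones at the ends of the score (0.0660), without the 0 h section 2 (0.0636) and without the 0 h section 3 (0.466). Without the 0 h section 2 or 3 the count was 3, and DESeq2 called 2 higher (5.06% of all genes higher, 5.79% lower).

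Some members overlap other annotated genes, and the part of this in their counts was not tested. Exons of Ncl, Gnl3, Nop56 and Nop58 overlap small RNA genes on the same strand in the GENCODE annotation, and 15 members overlap exons of a gene on the other strand. Mrto4 has named pseudogenes. The members lie on 18 chromosomes, with Nop56 at chr2:130274430-130279313, Gar1 at chr3:129824912-129831396, Gnl3 at chr14:31012433-31019152, Rrp12 at chr19:41862851-41896173 and Rcl1 at chr19:29101375-29143929 in GRCm38.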

How the data were processed

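Visium libraries of 11 mouse liver sections were analysed. The authors deposited unnormalised UMI counts, per section, of 31053 genes by 4992 barcoded spots. The submitters' processing notes name Space Ranger 1.0.0, Seurat 4.1.1 and mm10. Tissue masks and array positions were read from the deposited position files, and image scale factors were not used. Spots under the mask passed with 800 or more genes and no more than 20% mitochondrial UMIs, and their counts were summed per section (31292663 to 67045372 UMIs), since spots are not replicates.

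Sums were tested with edgeR 4.0.16 in R 4.3.3 (filterByExpr, TMM, 1 robust quasi-likelihood fit of all 11 sections by time), two-sided, with Benjamini-Hochberg adjustment over all genes tested and a call at adjusted p under 0.05. CPM are UMIs per 1000000 of the TMM-scaled total. Low, edge and far spots were classed on spots thinned to 2000 UMIs, by a hepatocyte score under the mean 1st percentile of the 0 h sections (5th as alternative), with at least 20 spots per class and the section as block in the fit. Zones at 0 h were tested likewise. The fits were tested on simulated data. The settings tried, among them DESeq2 1.42.0, total-count scaling, far spots only and leaving out each section, are given in the closing part.

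The members and gene lists were chosen with earlier results of these data known. Values in every section were given for Ncl, Npm1, Fbl and the RNA polymerase I subunits, for the 5 members with the largest called change in each comparison with 0 h, and for the 3 in every other comparison, the rest being summarised. The E box rule named Nop2 for the promoters, to which Gar1 and Rcl1 were added. Sequences came from RefSeq (GRCm38.p6) and gene positions from GENCODE on GRCm38.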

Additional observations from a re-analysis of the deposited data

Results flagged for a closer look

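In 3 of the named or listed members 1 of the 4 sections at 48 h stood apart from the other 3 by Dixon's criterion for a group of 4. Npm1 was at 118 CPM in section D, where the other 3 sections lay between 139.5 and 142 CPM, so that the gap was 0.892 of the group's range. Rrp9, a small subunit factor, was at 4.06 CPM in the same section D, with a gap of 0.87 of the range. Nop56 was at 24.2 CPM in section A, with a gap of 0.866, the other 3 sections lying between 27.1 and 27.5 CPM. Chance flags about 1 in 20 groups, and 40 members were looked at.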

How the results depend on the processing

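Direction and significance held for most of the values recomputed. Single members were recomputed only in comparisons for which a rule named them, mostly for a large called change. Changes elsewhere, such as those of Wdr74 and Pno1 against 0 h under total-count scaling, lie outside this tally. Of 268 recomputed summary values 231 stayed within their limits and 37 moved, and of 747 recomputed values of single members 713 were unchanged in direction and call, 19 lost the call, 8 gained it and 7 turned sign. The cause was not tested for any of them. Under total-count scaling, which moved the median of all genes, the member medians were 1.21, 0.68 and 0.66 at 24 h, 36 h and 48 h against 0 h, -0.48 and -0.45 at 36 h and 48 h against 24 h, and 0.047 at 48 h against 36 h. The counts called were then 33 at 36 h and 37 at 48 h against 0 h, 2 and 5 at the edges at 24 h and 36 h, 40 and 37 in low and edge spots at 48 h, and 8 between zones. The same scaling turned Npm1 (0.27) and Polr1c (0.34) at 36 h and Polr1c (0.44) at 48 h. Far spots alone gave 6 members at 48 h and turned Npm1 (-0.026) and Fbl (-0.009). Polr1b at 36 h turned without the 36 h section A (-0.008; 0.564 without B) and Fbl at 48 h without the 0 h section 2 (-0.037; 0.075 without section 4). Fits of only the groups compared gave 8 members at 36 h against 0 h and 0 at 36 h against 24 h. DESeq2 called 1 member at 48 h against 36 h, 1 at the 24 h edge, 10 at the 48 h edge and 2 between zones. The 5th percentile gave 4 and 1 at the edges at 24 h and 36 h.

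Leaving out each section in turn gave 27 to 35 members at 24 h against 0 h (median 0.77 to 0.88), 8 to 14 at 36 h (0.15 to 0.24), 6 to 13 at 48 h (0.08 to 0.17), 8 to 23 at 36 h against 24 h (-0.64 to -0.54), 22 to 29 at 48 h against 24 h, 0 at 48 h against 36 h (-0.105 to -0.021), 0 to 3 at the 36 h edge, 16 to 22 in low spots and 12 to 21 in edge spots at 48 h, and 3 to 4 between zones. A comparison that left 1 section in a group assumed that it varied like the others. The letters A and B recur at 24 h, 36 h and 48 h. Correlations of same-letter deviations ran from -0.241 to 0.287, so the letters were not taken to pair sections. With the letter as a replicate block 0 members were called at 36 h and 10 at 48 h against 24 h. A fit of the same injured sections without the block, chosen after seeing the data, called 18 and 28. Low spots at 24 h and 36 h gave no value at the 1st percentile, nor did the 24 h edge without section A, and DESeq2 was not run for differences of effects.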

Other observations

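The cytosolic ribosomal protein genes, whose products the assembly factors put together, did not rise with them. Of 83 tested, 7 were higher and 6 lower at 24 h, 2 and 28 at 36 h, and 0 and 26 at 48 h, with median log2 fold changes of -0.15, -0.33 and -0.22. Of all genes, 23.1%, 16.8% and 23.3% were higher at these times and 18.6%, 12.4% and 20.9% lower. The direction depended on the scaling: under total counts the medians were 0.18, 0.10 and 0.31, and 24, 15 and 35 genes were higher with 0 lower. On that scale the median of all genes moved to 0.37, 0.49 and 0.54, and 41.1%, 47.7% and 60.2% of all genes were higher. The ribosomal protein median thus lay below that of all genes at all 3 times under both scalings. By place more of them were called, in separate fits with the section as block. In hepatocyte-low spots at 48 h, 70 of 82 were higher than in far spots and 2 lower (28.9% and 28.7% of all genes), with a median of 0.24. In edge spots 36 were higher and 0 lower (19.6% and 20.8%), with a median of 0.12. At 0 h, 62 of 81 were higher in central than in portal spots and 1 lower (12.5% and 12.7%), with a median of 0.09.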
